A study of Mus musculus with 23 samples.

Results

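The genes described here are 10 mouse genes of neutrophils and inflammatory myeloid cells (S100a8, S100a9, Il1b, Cxcl2, Steap4, Cd14, Csf3r, Cxcr2, Retnlg and Mmp9), followed across RNA sequencing libraries of cells labelled as group 2 innate lymphoid cells (ILC2s). They are named members of a list of neutrophil granule and inflammatory genes drawn up with earlier results of these data known. Some were selected on their measured difference between the blood days, so that difference is described here without a test. Comparisons that use the blood libraries are not independent of the choice. All 10 were found among the 19945 genes of the deposited table, and all 10 were among the 15268 genes that passed the filter on low values and were tested.

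Every library, the culture control included, carries the genotype label B6.Cg-Tg(CAG-GFP)Smoc, a line in which the CAG promoter drives green fluorescent protein, and the extraction protocol names transgenic and wild-type male donors 8 to 10 weeks old. Donors were given IL-33 every 2 days over 7 days, and bone marrow and spleen cells selected for CD25 and depleted of Ter119, CD3ε, Gr1, CD11b and CD45R/B220 were kept for 14 days with added cytokines (IL-2, IL-33, IL-7 and also IL-15). A sort on CD45, ST2, KLRG1 and CD127 without lineage markers followed, and the cells were given intravenously to mice that had undergone occlusion of the middle cerebral artery (MCAO), a surgical stroke model, 6 hours earlier. The 4 groups are cells from brain on day 5 after MCAO (6 libraries), cells from blood on day 5 (6 libraries), cells from blood on day 1 (6 libraries) and cells directly from culture (5 libraries), and each group was processed in 2 labelled batches. The strain and age of the recipient mice, whether the culture libraries passed the final sort, how the cells were sorted on recovery, whether libraries come from separate animals and how many animals were used are not given by the labels, so p-values measure the spread between these libraries, which may be technical.

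Neutrophils are short-lived granulocytes that leave the bone marrow under the growth factor G-CSF, follow chemokines such as CXCL2 through the receptor CXCR2, and are among the first blood cells to enter ischemic brain. Their cytosol is packed with the calcium-binding pair S100A8 and S100A9, and their granules hold proteases such as MMP9. Interleukin-1β, CXCL2 and the lipopolysaccharide co-receptor CD14 are made by activated neutrophils and also by monocytes, macrophages and microglia, whereas ILC2s are lymphoid cells that are not known for a granule program.

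Sequencing depth was 11.6 to 58.1 M reads per library (M, 1e6 reads), 11.6 to 16.9 M in the 12 libraries of batch 1 and 27.8 to 58.1 M in the 11 libraries of batch 2. Blood day 1 replicates 2 and 6, brain replicate 2 and culture replicate 5 were treated as standing apart from the rest of their groups, by a measure not given here. Results that move without them are given both ways. Without these 4 libraries, 8 of the 10 genes passed the test in brain against blood on day 5, 7 in brain against culture, 10 in blood on day 5 against culture and 8 in blood on day 1 against culture, where 8, 7, 10 and 7 passed with all 23 libraries. The label ILC2 did not hold evenly across groups by its own markers. Gata3, the lineage transcription factor, averaged 13.3 ± 8.3 normalized counts in brain, 1588 ± 309 in blood on day 5, 1279 ± 588 in blood on day 1 and 315 ± 190 in culture (SD, n = 6, 6, 6 and 5). Klrg1, a gene of the sort gate, averaged 9.40 ± 7.7 in brain, 10829 ± 7737 in blood on day 5, 6567 ± 3391 in blood on day 1 and 23914 ± 14713 in culture. Il1rl1, which encodes the sort marker ST2, had 3 reads over all 5 culture libraries.

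The promoters of 4 genes are shown because these genes differ in how brain stood to blood on day 5 in the results that follow: S100a8 and S100a9 fell by 5.52 and 5.32 on the log2 scale, Il1b fell by 2.22, and Cxcl2 did not pass the test. Each line runs from 250 bases upstream of the RefSeq start to 50 bases downstream, on the strand of the gene (RefSeq, GRCm38.p6, the mm10 assembly). Capitals mark matches to GAGGAA (the core bound by PU.1, found as TTCCTC on the other strand), TTGCNNAA (a core of C/EBP sites), the NF-kB consensus and TATAAA, and no marked motif overlaps another kind of motif.
S100a8, chr3:90668821-90669120, plus strand: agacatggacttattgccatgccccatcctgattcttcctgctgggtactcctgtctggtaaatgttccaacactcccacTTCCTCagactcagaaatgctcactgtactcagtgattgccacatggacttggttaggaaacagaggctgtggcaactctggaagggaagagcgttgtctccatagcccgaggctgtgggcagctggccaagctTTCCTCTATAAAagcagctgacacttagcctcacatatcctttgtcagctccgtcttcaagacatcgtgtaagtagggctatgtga
S100a9, chr3:90695672-90695971, minus strand: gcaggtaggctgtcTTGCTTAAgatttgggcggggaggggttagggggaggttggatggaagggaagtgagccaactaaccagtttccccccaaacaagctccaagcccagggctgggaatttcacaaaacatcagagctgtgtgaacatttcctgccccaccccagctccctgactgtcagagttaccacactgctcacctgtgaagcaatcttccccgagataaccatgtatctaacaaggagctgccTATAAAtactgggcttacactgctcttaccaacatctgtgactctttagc
Il1b, chr2:129371090-129371389, minus strand: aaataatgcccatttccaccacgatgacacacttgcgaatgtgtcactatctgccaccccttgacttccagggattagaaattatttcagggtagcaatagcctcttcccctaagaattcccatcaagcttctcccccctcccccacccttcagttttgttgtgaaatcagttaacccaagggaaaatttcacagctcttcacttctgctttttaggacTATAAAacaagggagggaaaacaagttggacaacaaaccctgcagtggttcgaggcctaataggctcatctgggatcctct
Cxcl2, chr5:90903649-90903948, plus strand: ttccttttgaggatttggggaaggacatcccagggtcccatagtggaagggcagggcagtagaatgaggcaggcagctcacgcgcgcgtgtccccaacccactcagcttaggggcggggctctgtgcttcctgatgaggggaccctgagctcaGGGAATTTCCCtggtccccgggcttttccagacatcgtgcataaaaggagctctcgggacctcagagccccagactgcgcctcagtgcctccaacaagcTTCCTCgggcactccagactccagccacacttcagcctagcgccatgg
The S100a8 window held GAGGAA 170 and 36 bases upstream of the start and TATAAA 30 bases upstream. In the S100a9 window, TTGCNNAA lay 236 bases upstream and TATAAA began at the annotated start itself. The Il1b window held TATAAA 31 bases upstream and none of the other searched motifs. The Cxcl2 window held the NF-kB consensus 97 bases upstream on the given strand and 96 bases upstream on the other strand, as overlapping matches, and GAGGAA just past the start. Among 32851 RefSeq promoters of the same length, the NF-kB consensus was in 4.51%, GAGGAA in 28.3% and TTGCNNAA in 10.8%, each on either strand, and TATAAA was in 8.32% on the given strand. Promoter windows were matched for 8 of the 10 genes, and among those not printed the NF-kB consensus was found in Steap4, GAGGAA in Csf3r and Cxcr2, and TTGCNNAA in Steap4 and Retnlg. Motif matches describe letters in these windows and were not tested against the expression data.

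**Figure D1:**
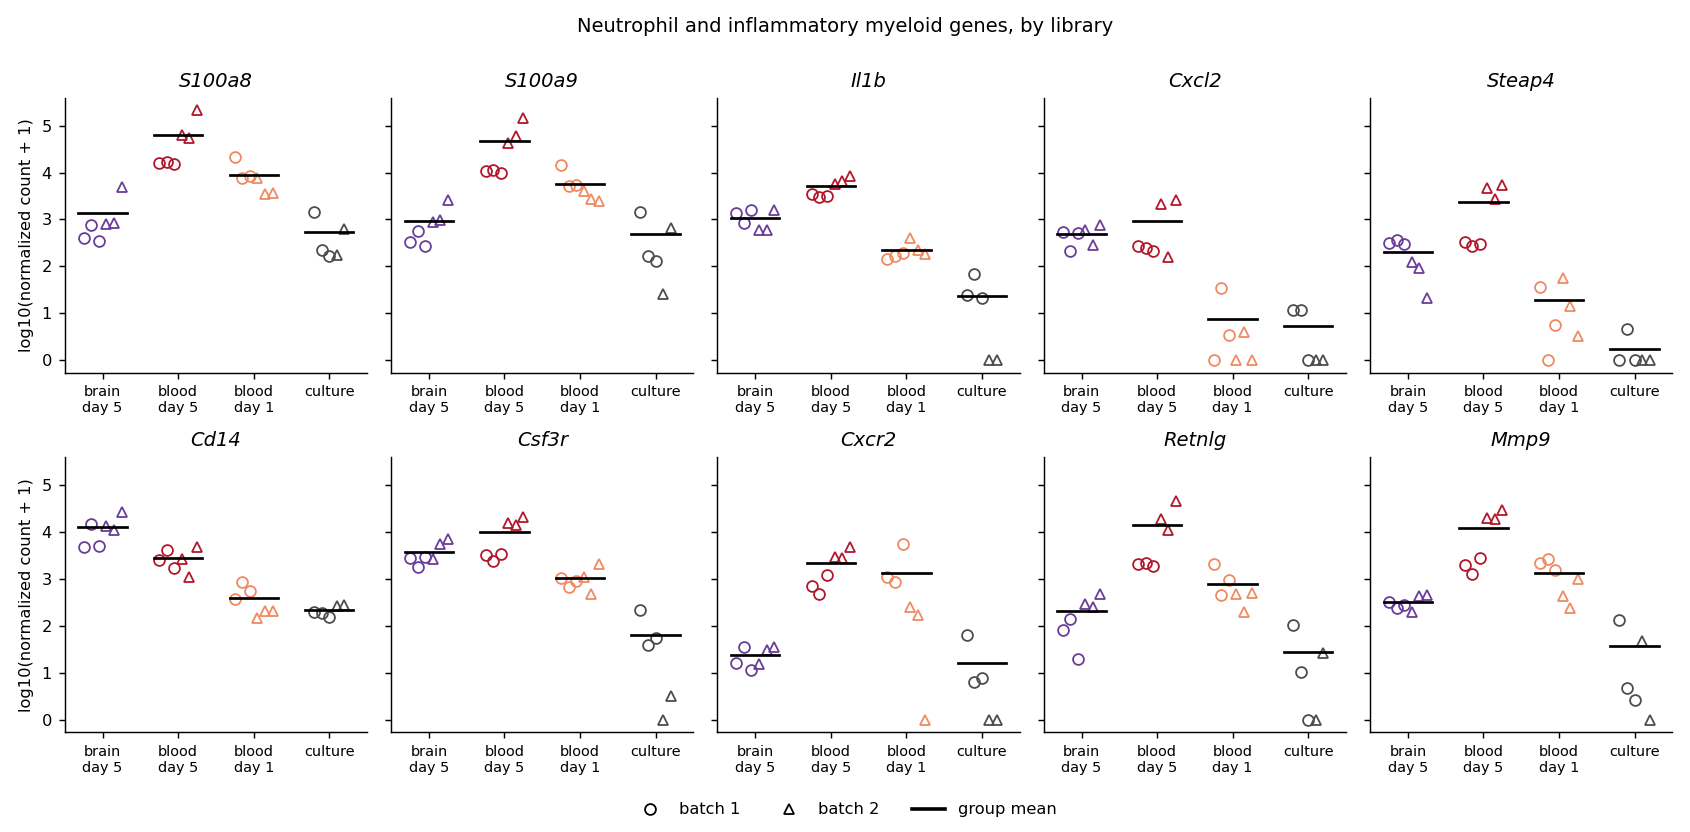
Level of each gene in every library, as log10(normalized count + 1), for brain day 5, blood day 5, blood day 1 and culture. Circles are batch 1 and triangles batch 2 libraries, and the black line is the log10 of the arithmetic group mean plus 1; in blood on day 5, the batch 2 libraries lie above the batch 1 libraries for most genes.

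S100a8 and S100a9 encode the subunits of calprotectin, the most abundant cytosolic protein of neutrophils, and lie close together on chromosome 3 (chr3:90668978-90670035 and chr3:90692632-90695721, GENCODE M21 on mm10). S100a8 had a lowest, median and highest normalized count of 339, 787 and 4949 in brain libraries, 15125, 36399.6 and 214549 in blood on day 5, and 3544, 7770.1 and 21515 in blood on day 1. The culture libraries held 1448, 221, 168, 178 and 631. Every blood library of either day was above every culture library, and only brain replicate 6 among the brain libraries reached into the range of blood on day 1. S100a9 had 274, 722 and 2564 in brain, 9930.4, 27389 and 143337 in blood on day 5, and 2426, 4612 and 14497 in blood on day 1. Its culture values were 1460.5, 164, 132, 24.4 and 645. The pair kept a similar proportion in most libraries: per kilobase of exon, S100a8 stood to S100a9 at a median ratio of 0.917 in brain, 1.12 in blood on day 5, 1.15 in blood on day 1 and 0.959 in culture, with culture replicate 4 at 5.47. Together they made up 0.608% of the normalized total in blood on day 5 (range 0.123 to 1.93% over 6 libraries) and 0.00856% in brain (0.00282 to 0.0265%).

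Retnlg encodes resistin-like gamma, a small secreted protein of mouse neutrophils (chr16:48872621-48874496), and Mmp9 encodes gelatinase B, which is stored in neutrophil granules and degrades type IV collagen (chr2:164940780-164955850). Retnlg had a lowest, median and highest level of 18.9, 195 and 470.4 in brain, 1878, 6774 and 46986 in blood on day 5, and 196, 494 and 2108 in blood on day 1, against 101, 9.13, 0, 0 and 25.9 in culture. The brain range overlapped that of culture, and all blood libraries lay above the culture ones. Mmp9 had 200.02, 301 and 459.6 in brain, 1311, 10759.7 and 30424 in blood on day 5, and 243, 1281 and 2635 in blood on day 1, against 129.98, 3.65, 1.65, 46.8 and 0 in culture. All recovered groups were above culture for Mmp9, and the brain libraries spanned the narrowest range of the 3.

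Among the receptors, Cxcr2 encodes the neutrophil receptor for CXCL1, CXCL2 and related chemokines (chr1:74153989-74161246). Its level was 10.3, 22.1 and 35.1 in brain (lowest, median and highest), 472, 2009 and 4904 in blood on day 5, and 0, 558 and 5673 in blood on day 1, where replicate 6 held no read of Cxcr2 and 5006 of S100a8. Culture held 63.2, 5.48, 6.60, 0 and 0. The brain libraries thus lay inside the culture range and below every library of blood on day 5. Csf3r encodes the G-CSF receptor (chr4:126024550-126044440) and had 1766, 2848 and 7274 in brain, 2404, 8893 and 21445 in blood on day 5, and 487, 978 and 2140.5 in blood on day 1. Culture held 213, 38.4, 54.5, 0 and 2.22, so that every recovered library was above every culture library. Cd14 encodes the co-receptor that hands lipopolysaccharide to TLR4 (chr18:36725067-36726798), and its brain libraries all lay above those of blood on day 5: it had 4824, 12310.1 and 27022 in brain, 1078, 2587 and 4778 in blood on day 5, and 144, 294 and 867 in blood on day 1. The culture values for Cd14, 200.4, 192, 157, 264 and 273, lay within the range of blood on day 1.

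Of the cytokines, Il1b encodes interleukin-1β, the pyrogenic cytokine released after cleavage by caspase-1 (chr2:129364570-129371139). It had 603, 1121 and 1590.1 in brain, 3063, 4602 and 8606 in blood on day 5, and 144, 186 and 408 in blood on day 1. Culture held 23.5, 67.6, 19.8, 0 and 0, and none of the 4 groups overlapped another. An annotated antisense gene, Il1bos, overlaps Il1b, and since the strand setting of the counting is not given in the sources used here, reads of the pair cannot be told apart; Il1bos was counted at 0.436% of the Il1b level in brain, 0.413% in blood on day 5, 7.25% in blood on day 1 and 3.06% in culture. Cxcl2 encodes a chemokine that draws neutrophils through CXCR2 (chr5:90903871-90905938), with 211, 515 and 752 in brain, 156, 259 and 2553 in blood on day 5, and 0, 1.17 and 34.1 in blood on day 1. Culture held 10.83, 10.96, 0, 0 and 0. The brain and blood day 5 ranges overlapped, and all their libraries lay above those of blood day 1 and culture.

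Steap4 encodes a membrane metalloreductase of iron and copper that inflammatory cytokines induce (chr5:7960457-7982213). It had 20.0, 209 and 363 in brain, 272, 1534 and 5464 in blood on day 5, and 0, 8.98 and 55.2 in blood on day 1. A single culture library held reads of it, replicate 2 with 3.65 normalized counts, which is 2 reads. Brain replicates 1 to 3, at 298 to 363, overlapped blood day 5 replicates 1 to 3, at 272 to 323, while the batch 2 libraries of those groups lay far apart, at 20.0 to 120 in brain and 2745 to 5464 in blood on day 5.

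Compared per kilobase of exon, so that genes of different length can be set side by side, the order of the genes differed between brain and blood. In brain the mean level per kilobase was 7325 ± 4714 for Cd14, 1941 ± 2562 for S100a8, 1786 ± 1624 for S100a9, 1059 ± 587 for Csf3r, 576 ± 245 for Il1b, 352 ± 277 for Retnlg and 231 ± 95.7 for Cxcl2 (SD, n = 6). Cd14 differed from the next gene by more than the larger SD of the pair, and each other gene of that order from its neighbour by less. In blood on day 5 it was 91996 ± 110934 for S100a8, 89290 ± 99317 for S100a9, 23526 ± 29675 for Retnlg, 3530 ± 3439 for Mmp9, 2802 ± 2260 for Csf3r, 2686 ± 1200 for Il1b and 1634 ± 819 for Cd14 (SD, n = 6). In blood on day 5, each gene of that order differed from its neighbour by less than the larger SD of the pair. Per kilobase, Il1b stood to S100a8 at 0.117 to 1.66 over the brain libraries, 0.0146 to 0.0769 over those of blood on day 5 and 0.0024 to 0.0226 over those of blood on day 1, so the brain libraries overlapped neither blood day in that ratio.

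**Figure D2:**
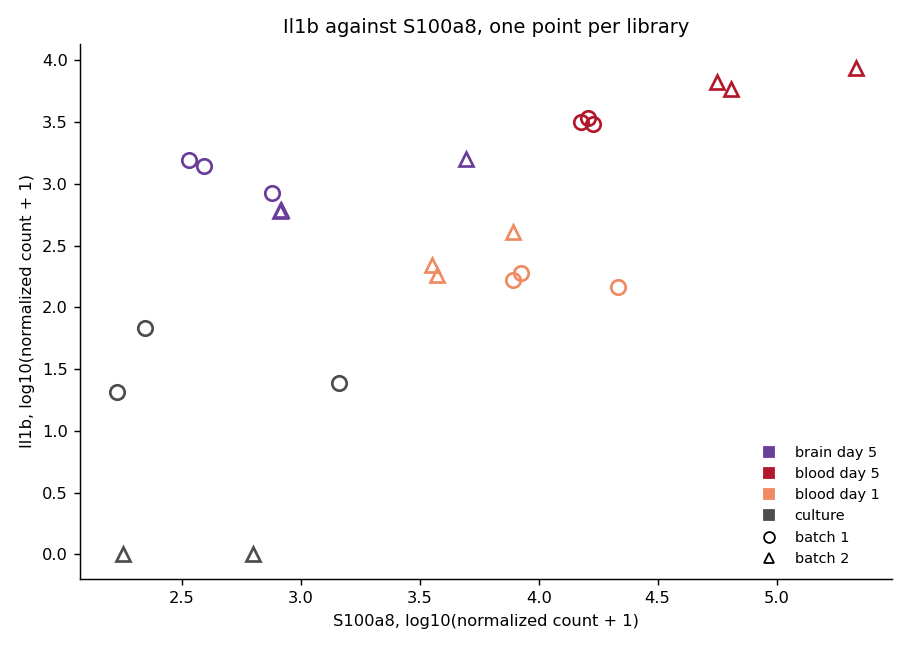
Il1b against S100a8 in each of the 23 libraries, both as log10(normalized count + 1), coloured by group, with circles for batch 1 and triangles for batch 2. Brain libraries lie between blood day 1 and blood day 5 in Il1b (603 to 1590 normalized counts). In S100a8 they lie below every blood day 5 library and overlap culture, with replicate 6 at the highest S100a8 of its group (4949). Blood day 5 libraries have the highest Il1b of all groups (3063 to 8606).

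Single libraries set part of these ranges. Blood day 5 replicate 6 was the highest of its group for 10 of the 10 genes, brain replicate 6 for 9 of 10, and culture replicate 1 for 6 of 10. In bulk samples such as these, a smaller share of cells of a type and less RNA per cell cannot be told apart.

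Cells from brain were compared with cells from blood on day 5, to ask how cells labelled as transferred ILC2s differ by site. S100a8, S100a9, Retnlg, Mmp9, Cxcr2, Il1b and Steap4 were lower in brain, Cd14 was higher, and Cxcl2 and Csf3r did not pass the test. Some of the genes were chosen for a difference between the blood days, and all 10 had a higher mean on day 5. The choice thus favours falls relative to blood on day 5, and neither the count of falls nor its p-values are independent support. Of the 10 genes, 7 fell (14.3% of all tested genes fell) and 1 rose (33.6% of all tested genes rose) at an adjusted p under 0.05 (limma on log2(value + 1), two-sided, Benjamini-Hochberg over all tested genes). The median log2 difference of the 10 genes was -3.69, and that of all tested genes was 0.47. Brain libraries lay wholly below blood day 5 libraries for 6 of the genes, against 10.5% of all tested genes, and wholly above for 1, against 24.9%.

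The largest fitted falls in brain were those of Cxcr2 (log2 -6.19 ± 1.36 SE, adjusted p = 5.47e-04), Retnlg (-5.57 ± 1.05, adjusted p = 1.03e-04), S100a8 (-5.52 ± 0.69, adjusted p = 4.33e-07) and S100a9 (-5.32 ± 0.81, adjusted p = 7.86e-06), each with 0 of the 6 brain libraries above the blood day 5 mean. Mmp9 fell by 4.41 ± 1.00 on the log2 scale, but in batch 1 alone the difference was -2.79 with an adjusted p of 0.0722. Il1b fell by 2.22 ± 0.75 (limma, adjusted p = 0.0179), a smaller difference than those of the granule genes. Steap4 had a log2 difference of -2.97 ± 1.04 (limma, adjusted p = 0.0213), which rested on batch 2: it was 0.13 in batch 1 and -6.08 in batch 2. The Steap4 difference stayed at -2.59, -2.55 and -2.34 without blood day 5 replicate 4, blood day 5 replicate 6 or brain replicate 6, with limma adjusted p-values of 0.0580, 0.0599 and 0.0687. Cd14 rose by 2.08 ± 0.47 (limma, adjusted p = 6.79e-04), by 1.42 in batch 1 and 2.74 in batch 2. Csf3r, at -1.06 ± 0.93, had an adjusted p of 0.375 with limma over all libraries, and 0.0376 in batch 2 alone and 0.0155 when only the libraries of these groups were fitted. Cxcl2 differed by -0.13 ± 0.98 (limma, adjusted p = 0.933).

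**Figure D3:**
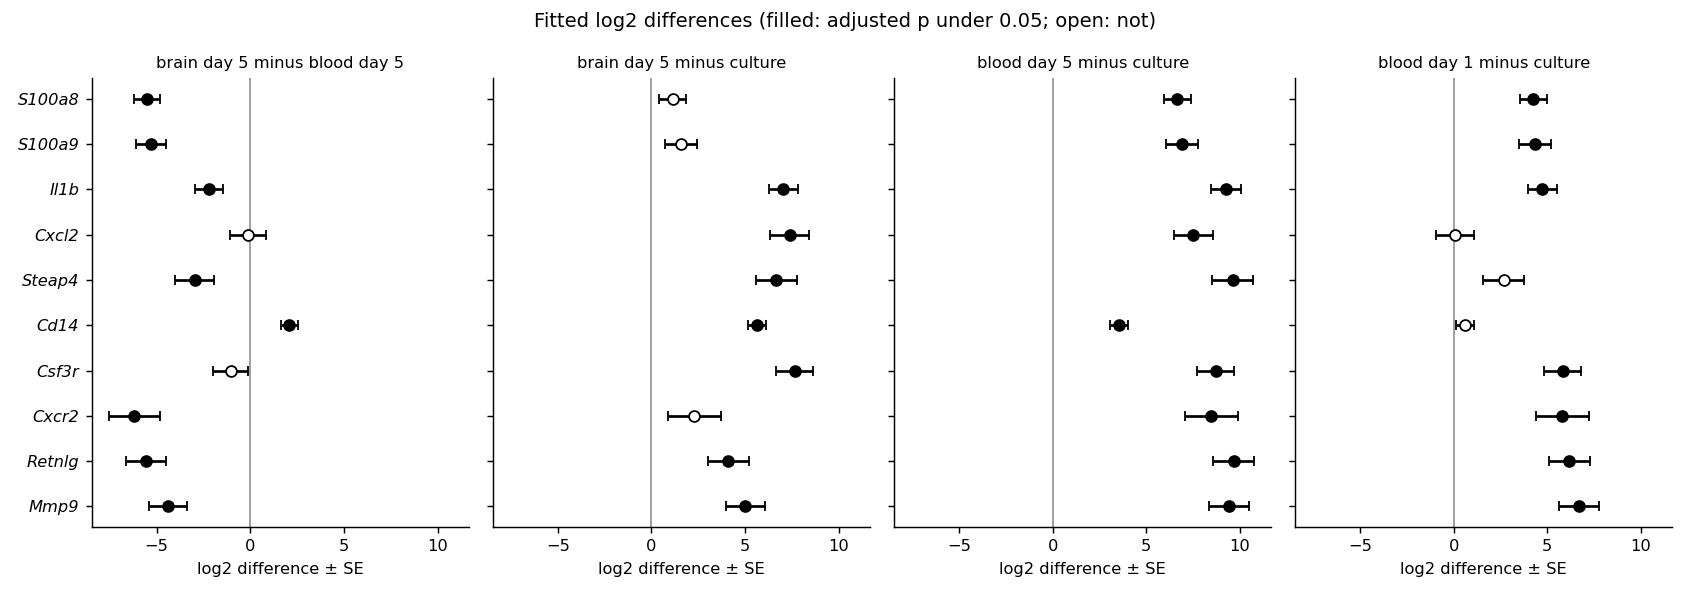
Fitted log2 difference of each gene with its standard error in the 4 tested comparisons, from the model with group and batch over 23 libraries. Filled points have an adjusted p under 0.05; relative to blood on day 5, only Cd14 lies to the right of zero among the filled points for brain.

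Other genes of the neutrophil followed the granule members in this comparison. Of 19 tested genes for granule and secreted proteins, 15 fell in brain relative to blood on day 5 and 0 rose, with a median log2 difference of -4.29. Among them were Wfdc21, a small protease-inhibitor-like secreted protein (-5.92 ± 1.05), Cd177, a neutrophil surface glycoprotein (-5.77 ± 0.92), Slpi, an inhibitor of neutrophil elastase (-5.25 ± 0.82), and Ltf, which encodes lactoferrin (-5.21 ± 0.93). Of 14 tested genes for mature neutrophil receptors and surface proteins, 11 fell and 0 rose, with a median of -3.64, among them Trem3, a receptor of the TREM family (-6.11 ± 0.96), Mcemp1 (-5.87 ± 1.04) and Ifitm6 (-5.53 ± 0.69). In batch 1 alone, 6 of these 14 fell. Of 13 tested genes for neutrophil cytosolic proteins and transcription factors, 9 fell and 0 rose, with a median of -1.81. They include Gfi1, the gene of a transcriptional repressor (-6.25 ± 0.79), and Cebpe, which drives secondary granule genes (-4.41 ± 0.92). Unlike the granule members, Gfi1 had a higher mean in culture (2857) than in blood on day 5 (743).

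Of 25 tested cytokine and NF-kB response genes, 9 rose in brain relative to blood on day 5, 3 fell and 13 did not pass. These shares are close to those of all tested genes (33.6% rose and 14.3% fell), and the median log2 difference was 1.03, against 0.47 over all tested genes. Cxcl1, a further ligand of CXCR2, averaged 2200 ± 2061 normalized counts in brain and 10.7 ± 18.1 in blood on day 5 (SD, n = 6 each), a log2 difference of 8.64 ± 1.04. Ccl2, the main monocyte chemokine, averaged 1212 ± 891 in brain and 15.0 ± 8.6 in blood on day 5, and Il1a, the other interleukin-1 agonist, 728 ± 588 in brain and 24.2 ± 29.8 in blood on day 5. Ccl7 held 3 reads over the 6 libraries of blood on day 5 and 10314 in brain, a ratio of read rates of 3755 (95% exact interval 1285 to 18211, counting error only). Of 14 tested receptors and ligands of the G-CSF, interleukin-1 and CXCL pathways, 6 rose and 3 fell, with a median of 1.22. Il1r1, the signalling interleukin-1 receptor, rose by 6.71 ± 1.33, Cxcl12, the retention chemokine of bone marrow, by 5.78 ± 1.29, Mmp2, the other gelatinase, by 8.45 ± 1.25, and Timp1, an inhibitor of MMP9, by 8.35 ± 0.83. These adjusted p-values from limma ran from 1.32e-08 for Timp1 to 6.31e-04 for Cxcl12.

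Markers of other cells moved with these differences. The 12 microglia markers summed to 0.835 to 2.59% of the normalized total in brain libraries and 0.0461 to 0.0607% in blood on day 5, and 11 of 12 rose in brain relative to blood on day 5, with a median of 6.57. Slc2a5, a microglial hexose transporter, had no read in blood on day 5 and averaged 5699 in brain, at least 1885-fold higher against a floor of 3 reads per library. The 13 monocyte and macrophage markers summed to 0.145 to 0.563% in brain and 0.179 to 0.286% in blood on day 5, with 5 higher and 4 lower in brain (2 lower in batch 2 alone) and a median of 1.88. Of this list, Ccr2, the receptor of inflammatory monocytes, fell by 5.16 ± 0.44, and Ms4a7 rose by 4.85 ± 1.08. The 10 neutrophil-defining genes (Ly6g, Ngp, Camp, Ltf, Mmp8, Cxcr2, Retnlg, Csf3r, S100a8 and S100a9) summed to 0.0187 to 0.0750% in brain and 0.285 to 3.12% in blood on day 5. Cxcr2, Retnlg, Csf3r, S100a8 and S100a9 are also among the genes described here, so this sum is not a separate measure. None of these marker genes was at 0 reads in the brain group. Of 11 tested mast cell, basophil and eosinophil markers, 5 fell and 0 rose, with a median of -4.10. In batch 1 alone 8 of these fell, and in batch 2 alone 2. Of 9 tested ILC2 markers and sort gate genes, 7 fell and 0 rose, with a median of -4.61. Among genes for antigens of the lineage depletion, Cd3e (-8.36 ± 0.52), Itgam (-6.52 ± 1.51) and Ly6g (-5.17 ± 1.12) fell. Itgam still averaged 1528 normalized counts in brain, against 5693 in blood on day 5. That gap of means is smaller than the difference fitted on log values, so the Itgam level was uneven among brain libraries. The depleted antigen CD45R/B220 is an isoform from Ptprc, which gene values cannot measure. The part of any cell type in the differences of the 10 genes was not tested.

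**Figure D4:**
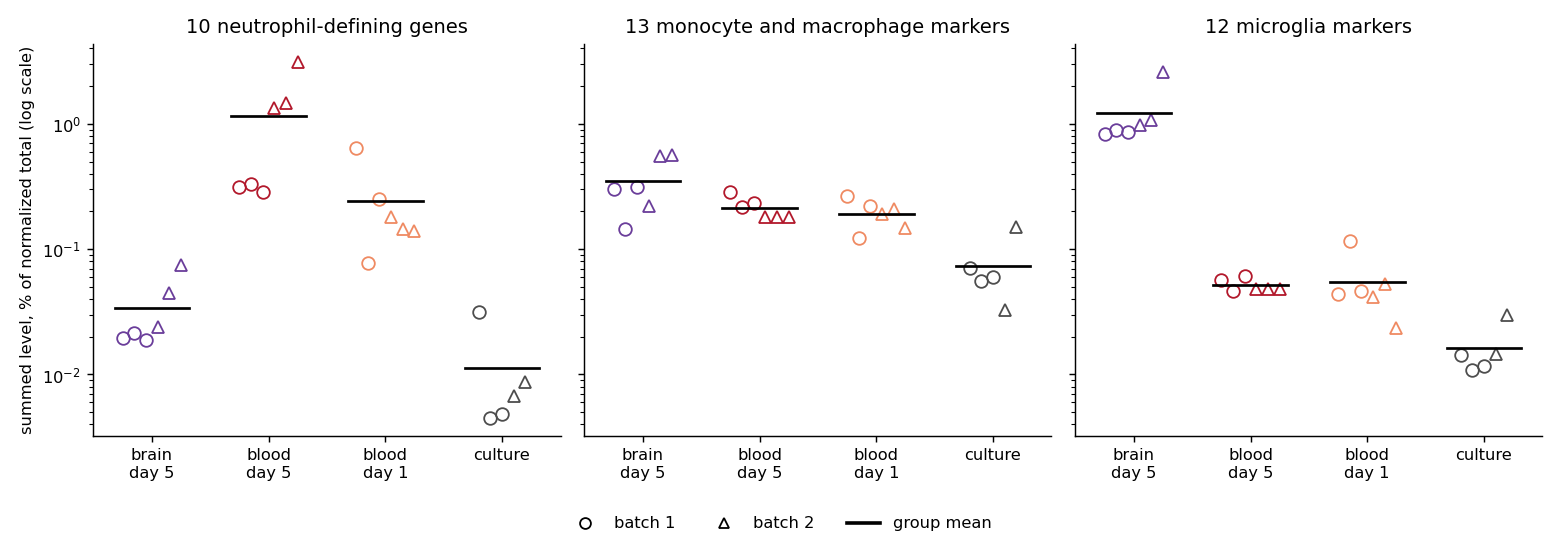
Summed level of 3 marker lists in each library, as a percentage of the normalized total on a log axis, for brain day 5, blood day 5, blood day 1 and culture. Circles are batch 1, triangles batch 2 and lines group means; the neutrophil-defining genes are highest in blood on day 5 (0.285 to 3.12%) and the microglia markers in brain (0.835 to 2.59%).

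Cells from brain were next compared with the cells as they left culture. Of the 10 genes, 7 were higher in brain (37.5% of all tested genes rose), 0 were lower (11.7% of all tested genes fell) and 3 did not pass, with a median log2 difference of 5.32 over the 10 genes and 0.67 over all tested genes. Without overlap between the groups, 6 of the 10 were higher, against 28.4% of all tested genes, and 0 were lower, against 7.27%. The rises were those of Csf3r (7.64 ± 0.97), Cxcl2 (7.38 ± 1.03), Il1b (7.04 ± 0.79), Cd14 (5.64 ± 0.49), Mmp9 (5.01 ± 1.06) and Retnlg (4.09 ± 1.10), with limma adjusted p-values from 1.46e-09 for Cd14 to 0.00332 for Retnlg, and of Steap4, whose read rate was 296 times that of culture (95% exact interval 81.8 to 2450.2, counting error only). Culture had no read of Il1b or Cxcl2 and 3 reads of Csf3r in batch 2, so the pseudocount of 1 enters those fitted values. The Csf3r difference was 4.97 in batch 1 and 11.37 in batch 2. The 3 genes that did not pass were S100a8 (1.14 ± 0.72, limma adjusted p = 0.206), S100a9 (1.60 ± 0.85, 0.130) and Cxcr2 (2.28 ± 1.43, 0.199). Without culture replicate 1, the highest in culture for those genes, S100a8 differed by 1.71 (limma adjusted p = 0.0469) and S100a9 by 2.34 (0.0195). S100a9 was at 0.23 in batch 1 and also passed in batch 2 alone, at 3.34 (limma adjusted p = 0.0299). Retnlg was at 2.59 in batch 1 alone (limma adjusted p = 0.165) and at 2.15 with edgeR on recovered reads (0.143), and passed in neither.

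Around the members, cytokine and pathway genes rose too in this comparison, in which 37.5% of all tested genes rose and 11.7% fell. Of 25 cytokine and NF-kB genes, 19 rose in brain relative to culture and 0 fell, with a median log2 difference of 4.07 (3.86 with the 3 genes that had no read in culture at their lower bound). Cxcl1 had no read in culture and was at least 547-fold higher in brain, Ccl3 and Ccl4, chemokines of activated leukocytes, rose by 9.61 ± 0.61 and 9.78 ± 0.56, and Ccl7 by 9.41 ± 0.72. Of the 14 pathway receptors and ligands, 9 rose and 2 fell, with a median of 3.73, and Mmp2 and Il1r1, both without a read in culture, were at least 2346-fold and at least 768-fold higher in brain. Of the 19 granule and secreted genes, 9 rose, 2 fell and 8 did not pass, a share of rises not far from that of all tested genes, with a median of 2.92. Mpo, which encodes myeloperoxidase, rose by 4.92 ± 1.68 with a very uneven level, 0, 885 and 39051 normalized counts as the lowest, median and highest brain library. Prtn3, the gene of proteinase 3, rose by 5.00 ± 0.86, whereas Ctsg, the gene of cathepsin G, a granule protease, averaged 491 ± 836 in brain and 11474 ± 7610.2 in culture (SD, n = 6 and 5) and fell by 7.14 ± 1.31. The count of 9 granule genes higher in brain was 3 in batch 1 alone, 13 in batch 2 alone, 5 without the 4 libraries that stood apart and 13 without culture replicate 1.

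Of the 14 mature receptor and surface genes, 9 rose in brain relative to culture and 1 fell, with a median of 3.93. C5ar1, the receptor for complement C5a that macrophages and microglia also carry, rose by 8.75 ± 0.74, and averaged 7532 ± 6692 in brain and 13.5 ± 11.1 in culture (SD, n = 6 and 5). Lrg1, a secreted glycoprotein of neutrophil granules, rose by 7.12 ± 0.93. The gene that fell was Ly6g, which encodes the neutrophil antigen recognized by antibodies to Gr1, at 8.93 ± 7.6 in brain and 703 ± 266 in culture. Ly6g belongs to a family of near-identical genes, and how reads shared within it were counted is not given in the sources used here. Of the 13 cytosolic and transcription factor genes, 6 rose and 4 fell, with a median of 1.69, among them Hdc, the gene of histidine decarboxylase (8.80 ± 0.93), Ncf1, a subunit of the phagocyte oxidase (6.67 ± 0.87), and Gfi1 (-8.11 ± 0.83). Of the 12 microglia markers, 11 rose, and of the 13 monocyte and macrophage markers, 10 rose and 2 fell. In culture the microglia markers summed to 0.0108 to 0.0296% of the normalized total and the monocyte and macrophage markers to 0.0328 to 0.150%, with Itgam at 0 reads. The neutrophil-defining genes summed to 0.0045 to 0.0313% in culture, and this sum includes Ly6g, which was higher in culture than in brain. The part of these cell types in the differences was not tested.

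In cells from blood on day 5, set against culture, all 10 genes were higher (19.6% of all tested genes rose), with no overlap between the groups for any of the 10 (15.2% of all tested genes were higher without overlap and 9.54% lower), and a median log2 difference of 8.59 over the 10 and 0.14 over all tested genes. The choice of some genes for a difference between the blood days favours high values on day 5, so these counts and p-values are a description and no independent support. The granule and receptor genes rose by 9.66 ± 1.10 for Retnlg, 9.41 ± 1.06 for Mmp9, 8.70 ± 0.97 for Csf3r, 8.47 ± 1.43 for Cxcr2, 6.92 ± 0.85 for S100a9 and 6.66 ± 0.72 for S100a8. Il1b rose by 9.26 ± 0.79, Cxcl2 by 7.51 ± 1.03 and Cd14, the smallest of these, by 3.56 ± 0.49. Steap4 had 28476 reads in blood on day 5 and 2 in culture, a ratio of read rates of 7612 (95% exact interval 2107 to 62856, counting error only). The limma adjusted p-values lay between 5.13e-09 for Il1b and 6.25e-05 for Cxcr2, and each gene was higher in 6 of 6 libraries than the culture mean. Within batch 1, where culture held reads of each gene in at least 1 library, the differences were 5.40 for S100a8, 5.07 for S100a9, 6.62 for Il1b, 5.25 for Csf3r, 3.85 for Cd14 and 7.37 for Mmp9. In batch 2, culture held no read of Il1b, Cxcl2 or Cxcr2 and 3 reads of Csf3r, so the pseudocount of 1 enters those fitted values. The batch 2 differences were 12.76 for Il1b, 9.88 for Cxcl2, 11.74 for Cxcr2 and 13.21 for Csf3r.

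The neutrophil lists moved alongside. Of 19 granule and secreted genes, 16 rose in blood on day 5 relative to culture and 1 fell, with a median log2 difference of 7.03, and among them Ngp, a cathelicidin-related granule protein, averaged 38601 ± 23752 in blood on day 5 and 468 ± 754 in culture (SD, n = 6 and 5). Mpo rose by 9.18 ± 1.68 and Elane, the gene of neutrophil elastase, by 8.76 ± 2.03. Of 14 mature receptor and surface genes, 12 rose and 0 fell, with a median of 6.80, led by Lrg1 (10.55 ± 0.93), Il1r2, the decoy receptor of interleukin-1 (9.62 ± 0.85), C5ar1 (8.55 ± 0.74) and Fpr1, the formyl peptide receptor (8.26 ± 1.34). Of 13 cytosolic and transcription factor genes, 8 rose and 1 fell, with a median of 5.41. Of 25 cytokine and NF-kB genes, 15 rose (9 in batch 2 alone) and 1 fell, with a median of 2.58. The largest rises there were those of Ccl4 (8.74 ± 0.56) and Ccl3 (7.48 ± 0.61), which natural killer and other lymphoid cells also make, and of Acod1 and Cxcl5. The last pair had no read in culture and were at least 95.1-fold and at least 43.3-fold higher. Of 14 pathway receptors and ligands, 8 rose and 0 fell, with a median of 1.59, among them Cxcr4 (6.05 ± 0.92), the receptor that holds neutrophils in bone marrow, and Csf2ra, a subunit of the GM-CSF receptor (4.73 ± 1.12).

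Genes of other blood leukocytes rose in these libraries too. Of the 13 monocyte and macrophage markers, 10 rose in blood on day 5 relative to culture and 0 fell, with a median of 4.82, and Itgam, the gene of the depleted antigen CD11b, was at least 1416-fold higher than in culture. Of 11 tested mast cell, basophil and eosinophil markers, 7 rose and 1 fell, including Prss34, a basophil protease (11.10 ± 1.98), and their summed share was 0.0490 to 0.130% of the normalized total in blood on day 5 and 0.0122 to 0.0181% in culture. The ILC2 markers and sort gate genes summed to 0.207 to 0.284% in blood on day 5 and 0.178 to 0.347% in culture. The part of these cells in the rises was not tested.

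Cells from blood on day 1 were already different from culture for 7 of the 10 genes, which were higher (18.1% of all tested genes rose), while 0 were lower (14.0% of all tested genes fell). The median log2 difference was 4.55 over the 10 genes and 0.04 over all tested genes, and 6 of the 10 did not overlap (9.7% of all tested genes were higher without overlap and 7.39% lower). The choice of some genes for a difference between the blood days favours low values on day 1. Neither the genes that passed here nor those that did not are independent support, and the counts and p-values are a description. Mmp9 rose by 6.68 ± 1.06, Retnlg by 6.17 ± 1.10, Csf3r by 5.81 ± 0.97, Cxcr2 by 5.79 ± 1.43, Il1b by 4.74 ± 0.79, S100a9 by 4.36 ± 0.85 and S100a8 by 4.25 ± 0.72, with limma adjusted p-values from 3.23e-05 for Mmp9 to 0.00318 for Cxcr2. In batch 2 alone, which holds the library at 0, the Cxcr2 difference was 5.14 and did not pass (limma adjusted p = 0.101). Csf3r differed by 3.48 in batch 1 and by 9.20 in batch 2, where culture held 3 reads of it. Il1b differed by 2.34 in batch 1 and by 7.99 in batch 2, where culture held no read of it. Cxcl2 differed by 0.08 ± 1.03 (limma, adjusted p = 0.987), with 19 reads over the 6 blood day 1 libraries and 12 over the 5 of culture. Cd14 differed by 0.61 ± 0.49 (limma, adjusted p = 0.366), by 1.64 in batch 1, where it passed alone (adjusted p = 0.0233), and by -0.54 in batch 2.

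Steap4 was the remaining gene that did not pass in blood on day 1 (limma, adjusted p = 0.0655), with 150 reads against 2 in culture and a ratio of read rates of 49.1 (95% exact interval 13.4 to 409.5, counting error only). It passed with DESeq2 (adjusted p = 5.83e-04) and edgeR (0.0159) on recovered reads, with a pseudocount of 0.5 (0.0410), and without culture replicate 2 (0.0452), blood day 1 replicate 2 (0.0205), blood day 1 replicate 6 (0.0448) or all 4 libraries that stood apart (0.0173).

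Among the surrounding genes on day 1, 15 of 19 granule and secreted genes rose and 1 fell, with a median log2 difference of 5.68. Slpi rose by 7.63 ± 0.87, Ngp by 7.32 ± 1.08, Mpo by 7.23 ± 1.68 and Camp, the gene of the antimicrobial cathelicidin, by 6.65 ± 1.06. Of 14 mature receptor and surface genes, 12 rose and 1 fell, with a median of 5.32, the fall being that of Ly6g (-4.60 ± 1.18), which averaged 115 ± 178 in blood on day 1 and 703 ± 266 in culture. Of 13 cytosolic and transcription factor genes, 7 rose and 3 fell, with a median of 2.38. Of 25 cytokine and NF-kB genes, 12 rose and 2 fell, with a median of 1.85, and the count of rises was 6 in batch 2 alone. Of 14 pathway receptors and ligands, 6 rose and 0 fell, with a median of 1.25, and this count of rises was 4 in batch 1 alone and 3 in batch 2 alone. The neutrophil-defining genes summed to 0.0776 to 0.642% of the normalized total in blood on day 1, the monocyte and macrophage markers to 0.123 to 0.264% with 10 of 13 higher than in culture, and the mast cell, basophil and eosinophil markers to 0.0064 to 0.328%, with 6 of 11 higher (3 in batch 2 alone) and 1 lower. Their part in the differences was not tested. The comparisons with culture share its 5 libraries, so their values are not independent of each other.

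The blood days are set side by side as a description only, since some of the genes were chosen for this difference. All 10 genes had a higher mean on day 5 than on day 1, and 5 of them, Il1b, Cxcl2, Steap4, Cd14 and Csf3r, had no overlap between the days (0.603% of all tested genes were higher on day 5 without overlap and 0.517% lower). The log2 difference was 7.43 for Cxcl2, 6.95 for Steap4, 4.52 for Il1b, 3.50 for Retnlg, 2.95 for Cd14, 2.89 for Csf3r, 2.74 for Mmp9, 2.68 for Cxcr2, 2.56 for S100a9 and 2.40 for S100a8, with a median of 2.92 over the 10 genes and 0.12 over all tested genes.

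The batches differed in how much they contributed. On the log2 scale, the difference of Il1b between the days was 4.27 in batch 1 and 4.77 in batch 2, and that of Cd14 was 2.21 in batch 1 and 3.69 in batch 2. By contrast, the difference of S100a8 was 0.51 in batch 1 and 4.29 in batch 2, with 0.53 and 4.59 for S100a9, 1.09 and 5.90 for Retnlg, and -0.10 and 5.57 for Mmp9. Cxcr2 was at -1.25 in batch 1 and 6.60 in batch 2. In blood on day 5, batch 2 libraries were at 111665 and batch 1 libraries at 16026 mean normalized counts of S100a8, a ratio of 6.97, and the ratio was 11.2 for Mmp9, 12.4 for Retnlg, 14.5 for Steap4, 5.77 for Csf3r, 2.19 for Il1b and 1.01 for Cd14. In blood on day 1 the batch 2 mean was the lower one for S100a8, at a ratio of 0.399, as it was for Mmp9 (0.259), Retnlg (0.337) and Cxcr2 (0.0556). The neutrophil-defining genes summed to 1.34 to 3.12% of the normalized total in batch 2 and 0.285 to 0.330% in batch 1 on day 5, and to 0.140 to 0.182% in batch 2 and 0.0776 to 0.642% in batch 1 on day 1. These sums include S100a8, S100a9, Retnlg, Csf3r and Cxcr2 themselves, so they are not a measure separate from the genes described. The part of a difference in neutrophil share between the batches was not tested.

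**Figure D5:**
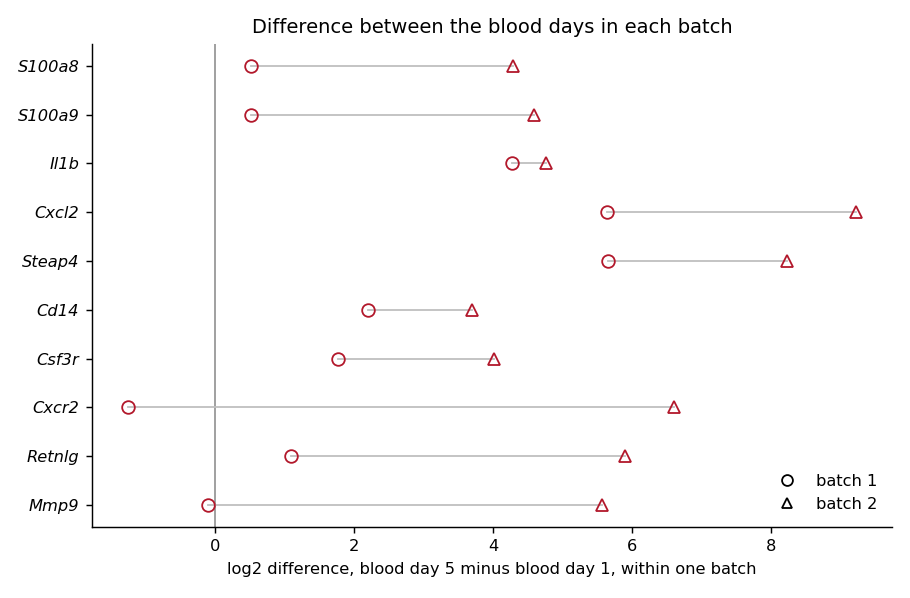
Difference of each gene between blood on day 5 and blood on day 1 within batch 1 (circles) and within batch 2 (triangles), as the difference of means of log2(normalized count + 1). Il1b is nearly equal in the batches (4.27 and 4.77), whereas Cxcr2 lies on either side of zero (-1.25 and 6.60).

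To place 3 of the genes among all others, genes were ranked by the root mean square difference of log2(value + 1) profiles over the 23 libraries, after centring each gene within its batch, among 11647 tested genes with a mean of at least 100. S100a8 was most like S100a9 (0.58 log2 units), Wfdc21 (0.99) and Chil3, the chitinase-like protein Ym1 (1.14), where the median gene differed by 3.14. Il1b was most like Csf3r (1.10), Ampd3, an AMP deaminase (1.40), and Ebf1, a transcription factor of B cells (1.45), with a median gene at 3.71. Cxcr2 was most like Fpr1 (1.38), the granule collagenase gene Mmp8 (1.40) and S100a8 (1.81), with a median gene at 4.09. Chil3 averaged 1452 ± 2025 in brain, 20369 ± 5425 in blood on day 5, 23976 ± 14702 in blood on day 1 and 555 ± 552 in culture. Ampd3 averaged 634 ± 196 in brain, 858 ± 605 in blood on day 5, 285 ± 169 in blood on day 1 and 16.2 ± 20.2 in culture (SD, n = 6, 6, 6 and 5).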

How the data were processed

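The deposited table gives 1 signal value per gene and library, which the authors call a normalized count: the read count divided by a factor of that library. Whole reads were recovered from it, with 100% of the values whole within a tolerance of 0.1 read. Per the submitters' processing notes, reads were trimmed with fastp and aligned to mm10 with HISAT2 2.0.5. The sources used here do not name the counting tool, annotation or strand setting.

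The test covered genes that reached 10 normalized counts in 5 or more of the 23 libraries. It used limma 3.58.1 (R 4.3.3) on log2(value + 1) (trend and robust eBayes), with the 4 groups and the batch in 1 model, two-sided, Benjamini-Hochberg over 15268 genes, threshold 0.05. A gene rose or fell only past that threshold. Alternatives with edgeR 4.0.16 and DESeq2 1.42.0 used the recovered reads. edgeR called 4834 genes in blood day 1 against culture, 4616 in blood day 5 against culture, 7545 in brain against culture and 6979 in brain against blood day 5. The limma code was also run on simulated counts with the same spread setting for all genes and libraries. That setting is simpler than these uneven libraries, so the run checks the code and not the results. Counting intervals and the floor of 3 reads per library cover counting error only.

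The 10 genes and the gene lists were chosen with earlier results of these data known. All 10 genes are named. From each list, up to 4 genes per comparison are named, those with the largest log2 differences past the threshold with the same sign in both batches, and marker genes are named beside the results. One gene that this rule names is not reported here. Lists beside the 10 genes are neutrophil granule and secreted proteins, mature receptors, cytosolic proteins and transcription factors, cytokine and NF-kB genes, pathway receptors and ligands, monocyte and macrophage, microglia, mast cell, basophil and eosinophil and ILC2 markers, and the lineage antigens removed before culture. Some lists share genes with each other, such as Itgam and Ly6g.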

Additional observations from a re-analysis of the deposited data

Results flagged for a closer look

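In each group of 5 or 6 libraries, the highest and lowest value of the 10 genes were compared with the rest of the group, 40 tests in all, of which chance marks about 1 in 20 groups. Brain replicate 6 stood out for S100a8, at 4949 normalized counts where the other 5 brain libraries held 339 to 827, a gap of 0.668 of the group's range against a critical value of 0.625. The same library was the highest of its group for 9 of the 10 genes. Culture replicate 2 stood out for Steap4, at 3.65 normalized counts (2 reads) where the other culture libraries held 0, a gap of 1 of the range against a critical value of 0.710. With all other values at 0, that gap is 1 for any number of reads, so the flag carries little weight.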

How the results depend on the processing

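The number of the 10 genes past the threshold stayed within 1.5 times its value under each alternative run: other pseudocounts, no filter, equal library totals, edgeR, DESeq2, only the libraries compared, no batch term, each batch alone, the 4 libraries that stood apart left out, the closest libraries averaged, and each library left out in turn. With single libraries left out it ran from 7 to 8 in brain against blood on day 5, 7 to 9 in brain against culture, 10 to 10 in blood on day 5 against culture and 7 to 8 in blood on day 1 against culture. Of all tested genes, 4905 passed in blood on day 1 against culture and 2677 in batch 2 alone; the cause was not tested. No label says whether replicate numbers pair libraries. After removal of group and batch means, 33 pairs of equal number correlated at -0.104 to 0.189 across genes (median 0.014). The 66 pairs of unequal number correlated at -0.167 to 0.120 (median -0.008). Such correlations over all genes cannot exclude that libraries of equal number share an animal or a preparation. With the replicate block, 7242 genes passed in brain against blood on day 5, 7430 in brain against culture, 4539 in blood on day 5 against culture and 4651 in blood on day 1 against culture, and no call of the 10 genes changed.

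Directions turned for genes that did not pass or that differed between batches, and the cause was not tested. For Cxcl2 in blood on day 1 against culture, the log2 difference of 0.08 became -0.0094 with equal library totals, -0.067 with the replicate block, -0.090 in batch 1 and -0.92 without the 4 libraries that stood apart, and -0.70 to 0.58 with single libraries left out. For Cd14 in that comparison it was -0.54 in batch 2. For Cxcl2 in brain against blood on day 5, it was 0.65 in batch 1, 0.051 without the 4 libraries, and -0.44 to 0.41 with single libraries left out, and for Steap4 it was 0.13 in batch 1. Between the blood days, Cxcr2 was at -1.25 and Mmp9 at -0.10 in batch 1. Other scalings moved the median log2 difference of all tested genes: in brain against blood on day 5 it was 0.47, 0.08 with equal totals and 0.14 with edgeR, in brain against culture 0.67 and 0.22 with edgeR, and in blood on day 5 against culture 0.14 and 0.44 with equal totals. Low reads in culture limit the fitted values of Steap4, Cxcl2 and Cxcr2, and in batch 2 also those of Il1b and Csf3r.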
